A study of Mus musculus with 24 samples.

Results

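Tandem 3′ UTR events are pairs of transcript ends in 1 terminal exon, where cleavage at an upstream site gives a shorter 3′ UTR and cleavage at a downstream site gives a longer one that holds the shorter one plus an extension. All 960 such events in the authors' deposited tables were taken, of 9895 events of all kinds, the other 8935 being splicing events. They lie in 957 named genes, and 3 carry no gene name. Each event has a value per library, percent spliced in (PSI), a fraction that is 1 when the shorter form alone is used and 0 when the longer form alone is used, per the file headers. Nothing beyond the headers was used to check that direction, so every statement on shorter and longer forms and every implied length rests on them. If PSI is instead the share of the longer form, each of these statements turns round. As examples, by the headers' direction the Rps15a event (forms of 37 and 4723 bases, mean PSI 0.0566) is nearly all longer form. By the same direction the Camk2a event (forms of 997 and 3373 bases, mean PSI 0.982) is nearly all shorter form. With the other direction, Rps15a would be nearly all shorter form and Camk2a nearly all longer form. Which of these holds was not tested.

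The RNA came from brains of mice at postnatal day 9, from tissue just behind the thalamus with the cortex taken off. The groups were Celf6 knockout (KO) TRAP with 5 libraries, wild-type (WT) TRAP with 5, KO input with 5 and WT input with 3. TRAP, translating ribosome affinity purification, pulls down RNA on the ribosomes of cells that carry a tagged ribosomal protein, here under an allele specific to serotonin cells, and input is total RNA of the same kind of tissue. The labels state neither the strain nor whether the input of every group carried the TRAP allele.

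The choice of a 3′ end is made when the cleavage and polyadenylation machinery cuts the nascent transcript, and the sequence between the sites can carry binding sites for microRNAs and RNA-binding proteins. Neurons are known for using downstream sites and hence long 3′ UTRs. CELF proteins, to which CELF6 belongs, bind RNA and act in splicing and in the stability of messages, often through 3′ UTRs.

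The 18 libraries held 3390423 to 11205985 counts each, the highest being the sum of WT input 2 and WT input 3, which were counted as 1 sample, WT input 2/3. They differed by less than the sampling noise between repeat runs, with a chi-square per gene of 1.34, where the 4 repeat-run pairs gave 1.37 to 2.58 and the remaining 35 pairs inside groups 24.7 to 90.3. Celf6 itself had 21.4 to 114 CPM in KO TRAP, 84.8 to 186 in WT TRAP, 4.78 to 22.2 in KO input and 15.5 to 103 in WT input, so KO and WT libraries overlapped in both kinds of RNA. These counts span the whole gene, and the labels do not give which piece was deleted. Of 12 serotonergic genes 11 were higher in TRAP (edgeR, adjusted p below 0.05), and their summed level was 4200 to 10600 CPM in TRAP and 212 to 343 CPM in input. Of 9 oligodendrocyte genes 6 were lower in TRAP, with sums of 1470 to 7090 CPM in TRAP and 5920 to 14100 CPM in input, and of 9 astrocyte genes 6 were lower, with 599 to 1570 CPM in TRAP and 1300 to 3150 CPM in input. Of 3 GABAergic genes 2 were lower in TRAP, with sums of 188 to 656 CPM in TRAP and 464 to 1270 CPM in input. No gene passed among 5 microglial, 3 endothelial and 2 glutamatergic ones. The labels do not say which libraries came from separate animals, so p-values measure the spread between these libraries.

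The shorter form had a median length of 431.5 bases (34 to 5042), and the extension a median of 801 bases (101 to 8463). In 646 of the 960 events the extension was longer than the whole shorter form. The mean PSI over libraries was above 0.9 in 389 events (40.5%), between 0.1 and 0.9 in 421 and below 0.1 in 150 (15.6%). The 240 events with the shortest extensions (101 to 385 bases) had a median PSI of 0.294, and the next 3 sets of 240 by length had 0.793, 0.801 and 0.722. The shortest set also had values in the fewest libraries, a median of 4 of 18, where the longer sets had 7.5, 10 and 9.

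Every event had a value in at least 1 library, but only 118 had one in all 18. Values were kept by the authors where the credible interval of PSI was at most 0.20 wide, which depends on read number and on PSI itself, so a missing value is not a missing transcript. Single libraries gave values for 386 to 546 events in TRAP and 350 to 551 in input. In TRAP alone 114 events had values, and in input alone 75. Over the 118 events seen everywhere, the mean PSI was 0.556 to 0.590 in TRAP libraries and 0.578 to 0.60 in input libraries. Each event's length was taken, by the headers' direction, as the shorter form plus the extension weighted by 1 − PSI. On that basis the mean 3′ UTR was 1068 to 1122 bases in TRAP and 1038 to 1096 bases in input. Both ranges overlap, and no test was made on these averages.

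**Figure D1:**
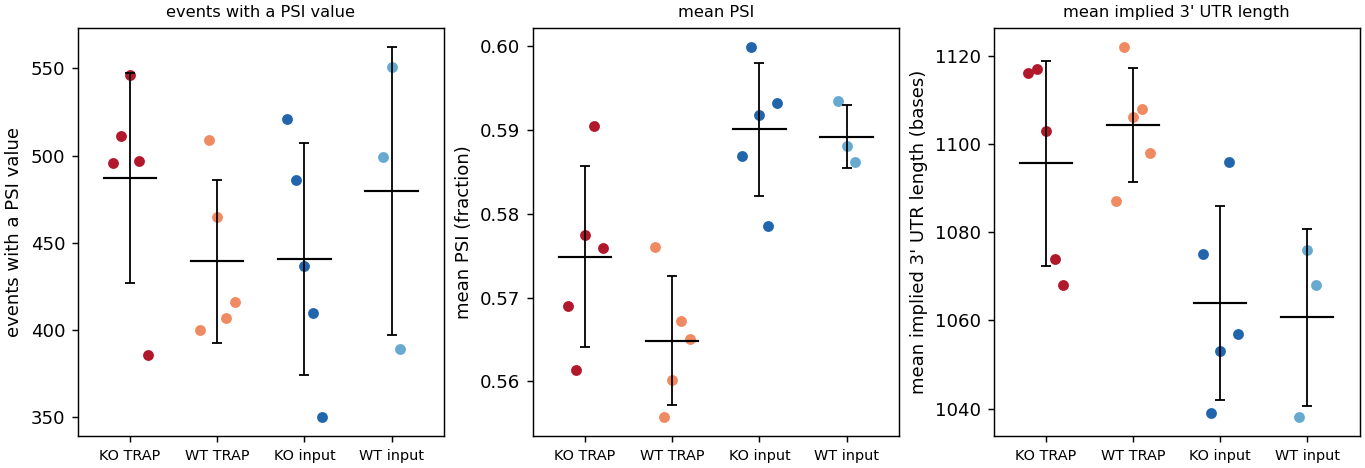
Per library, the number of events with a PSI value, the mean PSI and the mean implied 3′ UTR length in bases over the 118 events seen in all 18 libraries, with points for libraries, bars for the mean and whiskers for the SD (the axes do not start at 0). TRAP libraries lie at a mean PSI of 0.556 to 0.590 and input libraries at 0.578 to 0.60.

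Serotonin cell RNA was compared with total RNA in the 220 events measured in 3 or more libraries of every group. The Calm3 event was lower in TRAP, that is, by the headers' direction its longer form took a larger share there. Calm3 encodes calmodulin, the calcium sensor that many kinases and channels depend on. The event lies on chromosome 7 at 16915377 to 16916946 on the minus strand (mm10), with a shorter form of 142 bases and an extension of 1428 bases. PSI was 0.789, 0.850, 0.838, 0.758 and 0.858 in KO TRAP, and 0.993, 0.983, 0.838, 0.949 and 0.796 in WT TRAP. It was 0.994, 0.997, 0.994, 0.995 and 0.993 in KO input, and 0.995, 0.993 and 0.995 in WT input. All KO TRAP libraries were below all input libraries, while WT TRAP 1 lay within the input range. The difference in log2 odds, log2(PSI/(1−PSI)), was −3.40 ± 0.52 (SE, n = 10 TRAP and n = 8 input libraries; limma, adjusted p = 0.00288, Benjamini-Hochberg over the 220 events). PSI was held between 0.01 and 0.99 in the fit, so every Calm3 input value stands at the upper bound, and with bounds nearer 0 and 1 the difference was −4.22 ± 0.57.

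Calm3 was 1 of 220 events called, or 0.455%. Within run 1 its difference was −3.02 and within run 2 −4.02. In KO libraries alone it was −4.43 ± 0.21 (limma, adjusted p = 7.488e-06) and in WT libraries alone −2.34 ± 1.13 (adjusted p = 0.454). The difference between the genotypes in this respect was −2.04 ± 1.05 (limma interaction, adjusted p = 0.785). The gene's mean level was 2039 ± 451 CPM in KO TRAP, 1997 ± 355 in WT TRAP, 1999 ± 347 in KO input and 1961 ± 185 in WT input (SD, n = 5, 5, 5 and 3), with a log2 fold change of 0.03 ± 0.16 between TRAP and input (edgeR, adjusted p = 0.953). In bulk RNA, fewer cells of a type and less RNA per cell cannot be told apart. The part that the lower oligodendrocyte, astrocyte and GABAergic markers in TRAP have in the Calm3 PSI difference was not tested. The part of comparing RNA on ribosomes with total RNA was not tested either.

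**Figure D2:**
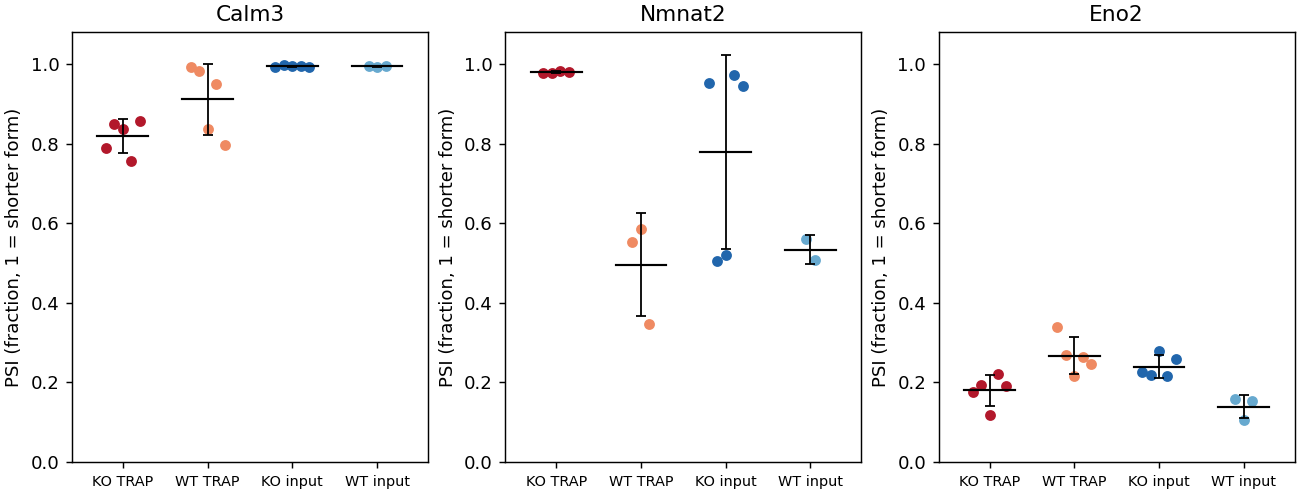
PSI in every library for the Calm3, Nmnat2 and Eno2 events in KO TRAP, WT TRAP, KO input and WT input, with points for libraries, bars for the mean and whiskers for the SD. Calm3 is at 0.993 or above in all input libraries and between 0.758 and 0.858 in KO TRAP.

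Counting Calm3, 29 events had an unadjusted limma p below 0.05 (13.2% of 220), of which 21 (9.55%) were lower in TRAP and 8 (3.64%) higher. Over all 220 events, 140 had a lower and 80 a higher value in TRAP, with a median difference of −0.11 in log2 odds. No event had TRAP and input libraries fully apart (0 of 220, 0.00%). The events with the next smallest p, chosen after the values were seen, were mostly lower in TRAP. Their adjusted p was 0.0689 or more by limma. Among splicing events 1 of 1048 was called (0.0954%), and 105 (10.02%) had an unadjusted limma p below 0.05. Of these 1048 splicing events, 571 had a lower and 477 a higher value in TRAP. Whether tandem UTR and splicing events differ in these shares was not tested.

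Rab10, a small GTPase of vesicle traffic, had PSI values of 0.266, 0.544 and 0.553 in KO TRAP and 0.639, 0.247, 0.450 and 0.239 in WT TRAP. Input values were 0.407, 0.753 and 0.579 in KO and 0.973, 0.922 and 0.941 in WT. TRAP and KO input overlapped, and WT input stood above all others. The difference between TRAP and input was −2.89 ± 0.59 (limma, adjusted p = 0.0689, n = 7 and n = 6 libraries with a value). Its 3′ UTR is among those the authors marked as bound by CELF6, and it lies on chromosome 12 at 3247447 to 3249785 on the minus strand with an extension of 1980 bases.

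Ttc3, which encodes an E3 ubiquitin ligase, spanned 0.420 to 0.952 in TRAP libraries and 0.588 to 0.984 in input libraries, with overlapping groups. Its difference was −2.48 ± 0.63 (limma, adjusted p = 0.0689). Vsnl1, a neuronal calcium sensor, had PSI of 0.742, 0.928, 0.975, 0.786 and 0.914 in KO TRAP, and 0.969, 0.540, 0.801, 0.945 and 0.966 in WT TRAP. Its input values were 0.983, 0.99, 0.988, 0.987 and 0.950 in KO and 0.989, 0.988 and 0.977 in WT. Apart from KO input 5, every input library lay above every TRAP library. The difference was −2.76 ± 0.71 (limma, adjusted p = 0.0689). Mpzl1, which encodes a cell surface glycoprotein, had a small range near 1 and a difference of −0.96 ± 0.24. The LIM-domain cofactor gene Lmo4 gave −1.35 ± 0.36 and the sodium pump subunit gene Atp1b2 −1.10 ± 0.32. Nipsnap2 gave −0.86 ± 0.24. Cfl2, which encodes an actin-severing cofilin, had PSI of 0.0134 to 0.0735 in TRAP and 0.0470 to 0.129 in input, and a difference of −1.39 ± 0.38. By the headers' direction its longer form was nearly alone. On the higher side, Trim35 had 0.984 to 0.995 in TRAP and 0.938 to 0.988 in input, with a difference of 0.86 ± 0.25 (limma, adjusted p = 0.0933). Golt1b (0.91 ± 0.32), Nutf2 (1.12 ± 0.49) and Oaz1 (0.29 ± 0.12), whose product limits polyamine synthesis, were among the others.

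**Figure D3:**
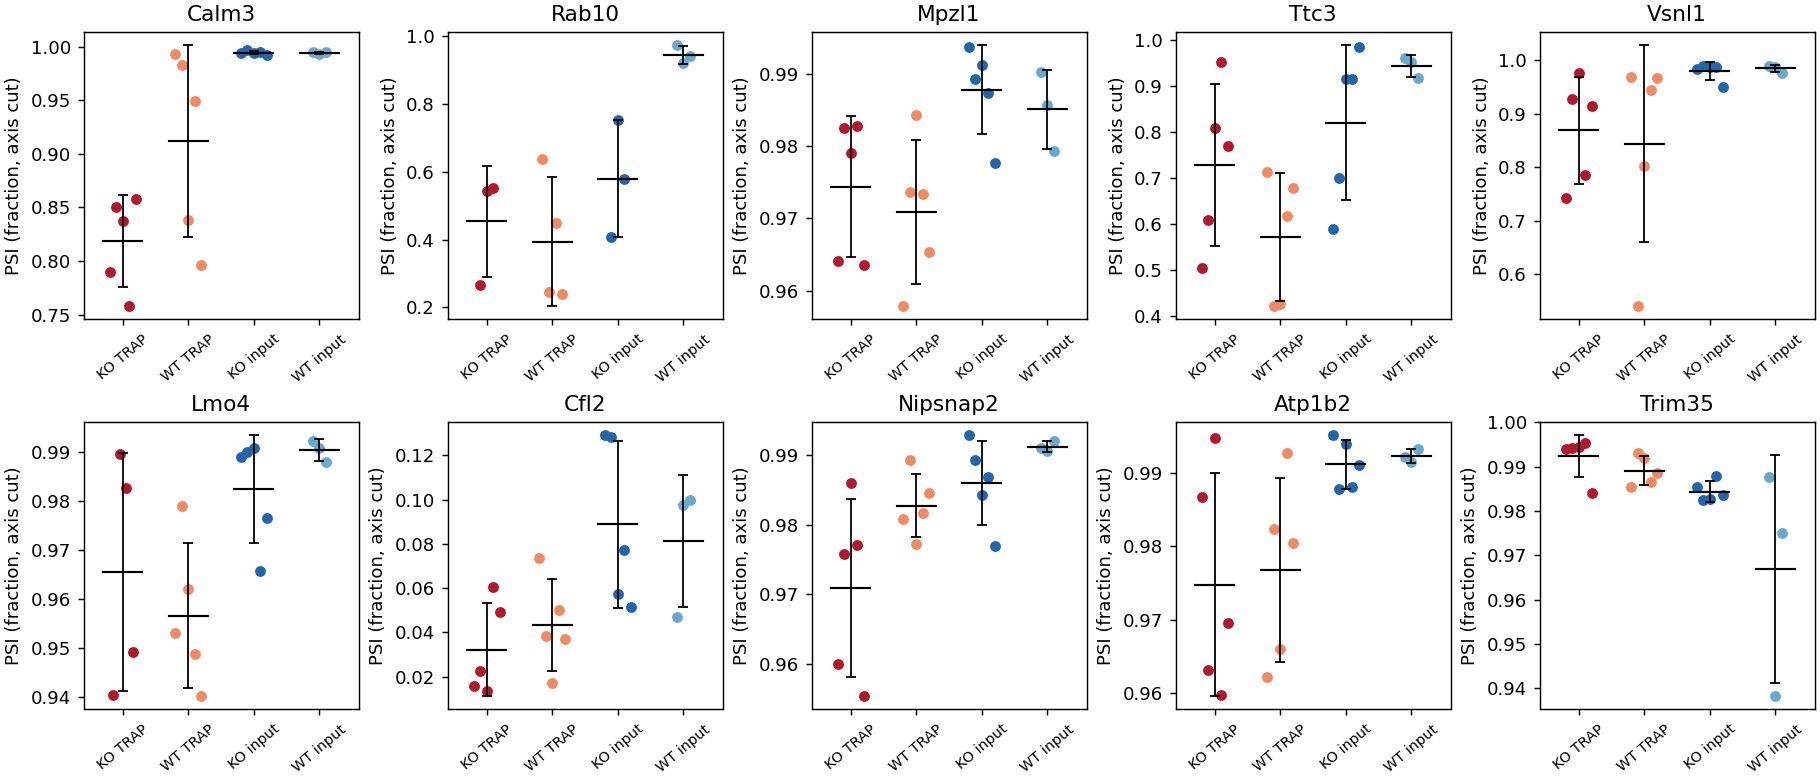
PSI in every library for the 10 events with the smallest p in TRAP against input, in order of p from Calm3, with points for libraries, bars for the mean and whiskers for the SD (each axis has its own range and does not start at 0). TRAP and input libraries overlap in every panel, and Calm3 is the only one past the threshold.

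Host genes of the events were grouped by function, in lists chosen with earlier results known. Of 14 cytoskeleton and motor genes with an event, 11 were tested, of which 9 had a lower and 2 a higher value in TRAP, with a median of −0.76 against −0.11 over all 220 events. None passed the threshold, and 3 had an unadjusted p below 0.05, namely Cfl2, Stmn2 and Kif21b. Stmn2, a regulator of microtubules in growing axons, ranged from 0.655 to 0.989 in TRAP and from 0.764 to 0.995 in input, with a difference of −2.53 ± 0.92. Kif21b, a kinesin motor, gave −0.76 ± 0.32. Of 13 tested small GTPase and traffic genes 10 were lower and 3 higher, median −0.18, among them Rab10 and Rab6a (−0.80 ± 0.26). Rab6a, a GTPase of the Golgi, had PSI of 0.111 to 0.330 in TRAP and 0.226 to 0.364 in input. For ribosome and translation genes, 11 were tested, 7 lower and 4 higher, with a median of −0.09. Of 8 kinases and phosphatases 5 were lower, median −0.20, including Cdk16 (−0.68 ± 0.25). Of 5 synapse genes 3 were lower, median −0.56, led by Napb, which encodes a protein of SNARE disassembly (−1.49 ± 0.62). Of 3 ubiquitin and proteasome genes 1 was lower. The list of genes reported to use tandem UTRs in neurons had 2 tested members, Calm3 and Camk2a (−0.56 ± 0.46), both lower. No 3′ end processing gene and no astrocyte marker hosts an event.

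Genes marked by the authors as bound by CELF6 in crosslinking and immunoprecipitation (CLIP) host 271 events, 117 of them with the 3′ UTR among the bound features. Of the called events, Nmnat2 is not marked as bound, and Calm3 and Eno2 are marked by an intron alone. Among uncalled events lower in TRAP, Rab10, Mpzl1, Ttc3 and Vsnl1 have a bound 3′ UTR. Atp1b2 is marked by an intron alone, and Lmo4, Nipsnap2 and Cfl2 are not marked. In TRAP against input, 66 of the 97 tested events in bound genes were lower (68.0%, median −0.13), and 32 of the 43 with a bound 3′ UTR (74.4%, median −0.21). Of the 123 tested events in genes not marked, 74 were lower (60.2%, median −0.10). In KO against WT within TRAP, 62 of 129 tested events in bound genes were lower in KO (48.1%), against 90 of 211 in genes not marked (42.7%). With a bound 3′ UTR it was 26 of 57 (45.6%), and 0 of these had an unadjusted limma p below 0.05 in either direction. In input, 61 of 104 in bound genes were lower in KO (58.7%), against 79 of 138 in genes not marked (57.2%). With a bound 3′ UTR it was 28 of 44 (63.6%). These are descriptions of shares and were not tested.

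Of the 220 tested events, 217 had a host gene tested for its level, 8 of them higher and 10 lower in TRAP, where 673 of all 14261 genes (4.72%) were called by edgeR. The difference in PSI and the log2 fold change of the host gene had a Pearson r of 0.16 across 217 events, which share libraries and are not independent. Gch1, which encodes the first enzyme in making the cofactor of serotonin synthesis, was the one serotonergic gene to host an event. It had values in 5 TRAP libraries, 0.562, 0.348, 0.590 and 0.942 in KO and 0.337 in WT, and in no input library. The gene was higher in TRAP by 5.85 ± 0.37 in log2 (edgeR, adjusted p = 2.43e-11). With no PSI value in input, the event was not compared.

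Loss of Celf6 was examined first in TRAP, in 340 events measured in 3 or more libraries of each genotype. The Nmnat2 event was higher in KO, that is, by the headers' direction with a larger share of the shorter form. Nmnat2 encodes an enzyme of NAD synthesis that keeps axons intact. It lies on chromosome 1 at 153115670 to 153119265 on the plus strand, with a shorter form of 401 and an extension of 3195 bases. PSI was 0.979, 0.977, 0.983 and 0.979 in KO TRAP and 0.554, 0.585 and 0.347 in WT TRAP, with no value in KO TRAP 2, WT TRAP 3 and WT TRAP 5. All KO values lay above all WT values. The difference was 5.69 ± 0.40 (SE, n = 4 KO and n = 3 WT libraries; limma, adjusted p = 0.00699), and the authors' deposited table gives a false discovery rate of 0.00956 for this event. A 2-sided exact permutation test over libraries gave p = 0.0286, the smallest that 35 splits allow. The difference was 5.07 within run 1 and 6.62 within run 2.

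The call was lost without KO TRAP 1 (limma, adjusted p = 0.0596), KO TRAP 5 (0.0687) or WT TRAP 1 (0.0645), and on untransformed PSI (0.0758). Over the 15 settings fitted on log2 odds, its highest adjusted p was 0.697 (limma). In input the Nmnat2 event had PSI of 0.952, 0.505, 0.521, 0.973 and 0.945 in KO and 0.560 and 0.508 in WT. Thus 3 KO input libraries were near the KO TRAP level and 2 were near the WT values, and with 2 WT values the event was below the minimum of 3 per group. With 2 values per group allowed, the difference in input was 1.29 ± 1.47 (limma, adjusted p = 0.864 over 407 events, n = 5 KO and n = 2 WT libraries). The gene's level was 360 ± 119 CPM in KO TRAP, 282 ± 58.5 in WT TRAP, 327 ± 62.9 in KO input and 387 ± 138 in WT input.

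Nmnat2 was 1 of 340 events called (0.294%), and 18 (5.29%) had an unadjusted p below 0.05. Of 1861 splicing events 0 were called in this comparison, and 125 (6.72%) had an unadjusted limma p below 0.05. KO and WT libraries did not overlap in 8 events (2.35%): Nmnat2, Polr2m, Ubn1, Arl5a, Spag9, Yars and Taf13 had every KO value above every WT value, and Mapk1ip1l every KO value below. With few values per group, groups can stand apart by chance, and the share expected by chance was not computed. Ubn1 and Arl5a had 3 values in each genotype. Polr2m, which encodes a protein bound to RNA polymerase II, had PSI of 0.989, 0.986 and 0.981 in KO TRAP and 0.940, 0.884, 0.898, 0.929 and 0.825 in WT TRAP. Its difference was 2.89 ± 0.43 (limma, adjusted p = 0.0743). Spag9, a scaffold of JNK signalling, had 0.986 to 0.993 in KO and 0.542 to 0.977 in WT, with WT TRAP 2 far below the rest, and a difference of 2.75 ± 0.90 (adjusted p = 0.779, limma). Mapk1ip1l had 0.110 to 0.225 in KO and 0.226 to 0.371 in WT, a difference of −0.99 ± 0.30 (limma, adjusted p = 0.690).

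In input, 242 events were tested and 0 passed (0.00%, limma), with 17 at an unadjusted p below 0.05 (7.02%). Of 1154 splicing events 0 were called in input, and 41 (3.55%) had an unadjusted limma p below 0.05. KO and WT input libraries did not overlap in 13 events (5.37%), 7 higher in KO (Mnt, Tomm40l, Eno2, Marchf6, C1d, Slc25a3 and Ypel5) and 6 lower (among them Rab10, Rpl31, Plekhb2, Cnnm3 and Lrpap1). Here too the share expected by chance was not computed, and WT input had 3 libraries. Mnt, a repressor that pairs with MAX, had PSI of 0.976, 0.985, 0.975, 0.972 and 0.973 in KO input and 0.957, 0.945 and 0.947 in WT input. Its difference was 1.16 ± 0.21 (limma, adjusted p = 0.322). Tomm40l, a relative of the mitochondrial import channel, had 0.0725, 0.111, 0.197, 0.0449 and 0.0654 in KO and 0.0324, 0.00686 and 0.0105 in WT, a difference of 2.71 ± 0.54 (limma, adjusted p = 0.322). Marchf6, a ubiquitin ligase of the endoplasmic reticulum, had 0.115 to 0.227 in KO and 0.0554 to 0.0982 in WT, a difference of 1.52 ± 0.35.

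**Figure D4:**
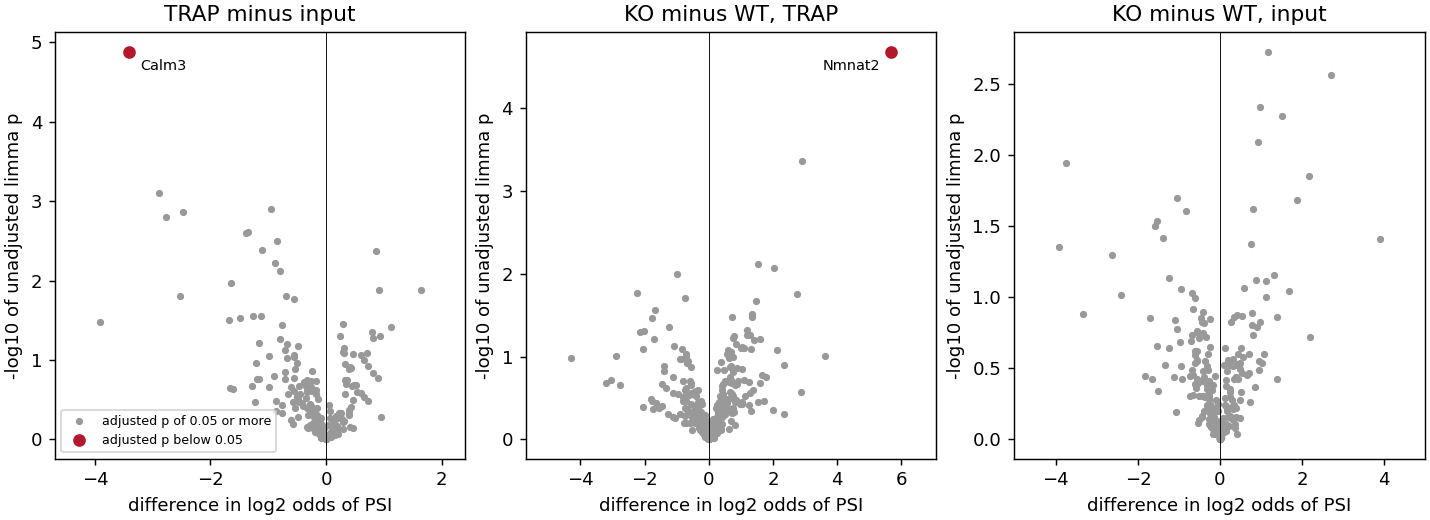
For each tested event, the difference in log2 odds of PSI (horizontal) and −log10 of the unadjusted limma p (vertical) for TRAP minus input (220 events), KO minus WT in TRAP (340) and KO minus WT in input (242). Calm3 and Nmnat2 are the 2 points past the adjusted threshold of 0.05, and the input panel has none.

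The genotype difference in TRAP was compared with that in input over 220 events, of which 1 passed (0.455%), the Eno2 event, and 12 had an unadjusted p below 0.05 (5.45%). Of 1048 splicing events 0 were called by interaction, and 58 (5.53%) had an unadjusted limma p below 0.05. Eno2 encodes the enolase of neurons, an enzyme of glycolysis, and the event lies on chromosome 6 at 124760053 to 124761291 on the minus strand with a shorter form of 930 and an extension of 309 bases. PSI was 0.176, 0.195, 0.118, 0.221 and 0.190 in KO TRAP and 0.340, 0.270, 0.216, 0.265 and 0.246 in WT TRAP. It was 0.226, 0.218, 0.280, 0.217 and 0.259 in KO input and 0.159, 0.105 and 0.154 in WT input. KO was lower than WT in TRAP apart from KO TRAP 4, which lay above WT TRAP 3, and higher than WT in every input library. The difference was −0.75 ± 0.26 in TRAP (limma, adjusted p = 0.779) and 0.97 ± 0.22 in input (adjusted p = 0.322), and the difference of these was −1.72 ± 0.34 (limma interaction, adjusted p = 0.0338). Within runs it was −2.06 in run 1 and −1.18 in run 2. The call was lost when any 1 of 10 libraries was left out, with the highest adjusted p of 0.180 (limma) without WT input 2/3, and 8 of the 18 omissions kept it. It was also lost with bounds on PSI nearer 0 and 1 (limma, adjusted p = 0.137) and with 2 values per group allowed (0.0752). Over the 24 settings fitted on log2 odds, the highest adjusted p of the Eno2 interaction was 0.517 (limma). Eno2's level was 624 ± 88.6 CPM in KO TRAP, 602 ± 122 in WT TRAP, 666 ± 244 in KO input and 665 ± 214 in WT input.

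The next event by interaction was Mnt (−2.28 ± 0.51, limma, adjusted p = 0.104), then Tomm40l (−3.10 ± 0.95) and Rab10 (4.15 ± 1.17), both with an adjusted p of 0.344. In input alone the Rab10 difference between KO and WT was −3.74 ± 0.81 (limma, adjusted p = 0.464).

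Of the 5 tested events with the longest extensions, 3 were at high PSI in most libraries, and the others were Zmat3, at intermediate PSI, and Kcnc1, at low PSI. Tmod2, an actin filament cap with an extension of 8195 bases, had PSI of 0.756 to 0.989 in TRAP and 0.932 to 0.99 in input. Agap1 (5282 bases) had 0.614 to 0.997 in TRAP and 0.745 to 0.994 in input. Gsk3b (4693 bases), a kinase of the Wnt pathway, had 0.961 to 0.994 in TRAP and 0.979 to 0.994 in input. Kcnc1 (5121 bases), a potassium channel of fast-spiking neurons, was low, with 0.0372 to 0.369 in TRAP and 0.0978 to 0.537 in input, and a difference of −1.68 ± 0.70 (limma, adjusted p = 0.311). The 5 events with the shortest extensions had intermediate or low PSI. Oaz1 (115 bases) had 0.384 to 0.497 in TRAP and 0.350 to 0.440 in input, and Eef1a1, which encodes the main elongation factor and shares its event with Gm26377 (137 bases), had 0.377 to 0.474 in TRAP and 0.368 to 0.475 in input. Ppp2ca (125 bases), which encodes the catalytic subunit of a protein phosphatase, had 0.120 to 0.340 in TRAP and 0.213 to 0.297 in input. Rplp0 (119 bases) had 0.0144 to 0.0715 in TRAP and 0.0188 to 0.0782 in input. The event of Atp5b and Baz2a (115 bases) lay at 0.0280 to 0.0866 in TRAP and 0.0353 to 0.0574 in input.

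The 5 events with the largest SD over the 18 libraries, among the 118 seen in all, were Cadm3, Zmat3, Ttc3, Napb and Adcy1. Cadm3, a cell adhesion molecule, ranged from 0.266 to 0.993 in TRAP and from 0.562 to 0.998 in input. Zmat3, with an extension of 5902 bases, ranged from 0.319 to 0.972 in TRAP and from 0.368 to 0.949 in input. Adcy1, an adenylyl cyclase of neurons, ranged from 0.489 to 0.991 in TRAP and from 0.735 to 0.995 in input. The difference between TRAP and input was −1.61 ± 1.30 for Cadm3, −0.86 ± 0.86 for Zmat3 and −1.23 ± 1.25 for Adcy1, and none of these passed the threshold (limma).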

How the data were processed

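PSI fractions per library were deposited by the authors, who made them with MISO and dropped any with a credible interval above 0.20, per the series' design text. Read counts per gene were deposited by the authors (featureCounts 1.4.6-p5, mm10, per the file headers). Trimming with Trimmomatic and alignment with STAR are named in the submitters' processing notes. The p-values and false discovery rates deposited by the authors come from ANOVA on the logit and are quoted once.

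Replicates 1 to 3 are from run 1 and 4 and 5 from run 2, per the labels. The WT input library labelled an outlier and the repeat runs were left out, and WT input 2 and 3 were averaged in PSI (summed in counts). PSI was held between 0.01 and 0.99 and log2(PSI/(1−PSI)) was fitted with limma 3.58.1 in R 4.3.3, with run as covariate, for events with at least 3 values per group, and adjusted over tandem UTR events (threshold 0.05). Counts were fitted with edgeR 4.0.16 (quasi-likelihood, TMM, filterByExpr). CPM are TMM-normalized. The events with the smallest p in each comparison, apart from the interaction, were also put to an exact permutation test over libraries. Only the Nmnat2 result of that test is given. Alternatives were other bounds on PSI, untransformed PSI, no run covariate, other minimum numbers of values, WT input 2 and 3 kept apart, each library left out, a replicate block, and, for counts, DESeq2 1.42.0, its size factors and no filter. Both fits were tested on simulated data. The simulated PSI values were centred on equal use of both forms, and the bounds of 0.01 and 0.99 were not applied to them. The fit of values near these bounds was therefore not tested. Of 960 events 956 matched a host gene in the count files, 70 by another symbol. Event positions are mm10, from the authors' tables.

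Members, lists and tests were chosen with earlier results of these data known. Named events were those past the threshold, the 5 with the smallest p per direction (for TRAP against input, 10, set after the values were seen), up to 4 per list, the 5 longest and 5 shortest extensions, and the 5 largest SDs. Yars, Taf13 and others whose groups do not overlap were named after their values were seen.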

Additional observations from a re-analysis of the deposited data

Results flagged for a closer look

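Dixon's test at 95% was run within groups on 3 library summaries and on the 41 events past a threshold or with the smallest p in these same data. For normal values it flags about 1 in 20, but many PSI values here lie near 0 or 1. The share that chance would flag is therefore not known. Single libraries stood apart from the rest of their group in 13 of 113 groups tested. In KO TRAP these were Dnajb1 (PSI 0.935 in KO TRAP 1, others 0.979 to 0.992), Golt1b (0.969 in KO TRAP 4, others 0.985 to 0.991), and in KO TRAP 5 Eif1 (0.985, others 0.994 to 0.995), Plekhb2 (0.949, others 0.973 to 0.980), Svop (0.972, others 0.99 to 0.996) and Trim35 (0.984, others 0.994 to 0.995). In WT TRAP they were Mnt (0.977 in WT TRAP 3, others 0.983 to 0.984), Rps15a (0.0742 in WT TRAP 1, others 0.0233 to 0.0294), Svop (0.967 in WT TRAP 1, others 0.991 to 0.995) and Spag9 (0.542 in WT TRAP 2, others 0.924 to 0.977). In KO input they were Plekhb2 (0.933 in KO input 5, others 0.964 to 0.968), Vsnl1 (0.950 in KO input 5, others 0.983 to 0.99) and Polr2m (0.90 in KO input 3, others 0.979 to 0.987).

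For the Eno2 event the KO minus WT difference depended on the kind of RNA, with an interaction of −1.72 in log2 odds (limma, adjusted p = 0.0338).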

How the results depend on the processing

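Counts of events past the threshold were 1 (TRAP against input), 1 (KO against WT in TRAP), 0 (KO against WT in input) and 1 (interaction). For TRAP against input the count was 2 without the run covariate, 10 of 264 with WT input 2 and WT input 3 kept as 2 libraries, and 0 in WT libraries alone, and leaving out 1 library gave 1 to 6 (5 without KO TRAP 3 or KO TRAP 4, 6 without WT TRAP 1, 3 without KO input 1). For KO against WT in TRAP it was 0 on untransformed PSI, 2 without the run covariate, 0 with a value required in all libraries, where Nmnat2 was not tested, and 0 to 2 leaving out 1 library. In input it was 0 under every alternative run (limma), with 0 to 0 leaving out 1 library. For the interaction it was 0 with bounds on PSI nearer 0 and 1, 0 with at least 2 libraries per group, 2 with WT input 2 and 3 kept apart, and 0 to 2 leaving out 1 library. The cause of these moves was not tested. For gene counts, 673 calls became 1065 without the filter and 1311 with DESeq2, and 346 to 831 leaving out 1 library (346 without WT input 5, 363 without WT input 1).

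With replicate numbers as a block, calls fell to 0 of 219 events (25 at an unadjusted p below 0.05) for TRAP against input, 0 of 333 (16) for KO against WT in TRAP and 0 of 219 (17) for the interaction, stayed at 0 of 197 (17) in input, and were 207 for gene counts. The labels do not say that a number is 1 brain, and deviations of same-numbered libraries correlated at −0.139 to 0.153, so the numbers were not taken as pairs. Calm3 was −3.38 under the block, with an adjusted p of 0.241 (limma).

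Uncalled values whose sign turned were those of Atp5b and Baz2a (−0.038 under the block, −0.12 in KO alone, −0.077 without WT input 2/3, −0.097 to 0.10 leaving out 1 library), Rplp0 (−0.044 under the block, −0.033 in KO alone), Tmod2 (0.42 under the block, −1.11 to 0.13 leaving out 1 library), Gsk3b (0.054 under the block, 0.30 in KO alone), Srsf1 (−1.19 to 1.30 leaving out 1 library, the highest without WT input 2/3 and the next highest, 1.13, without KO TRAP 1), and in WT alone Napa (−0.10), Uba1 (0.024), Gm26377 and Eef1a1 (−0.042) and Cadm3 (0.068). The log2 fold change of the Calm3 gene was −0.084 under the block, −0.018 without WT input 2/3 and −0.027 to 0.089 leaving out 1 library.

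The search for polyadenylation signals at the ends of both forms was not run. PSI values near 0 or 1 stand at the bounds in the fit.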
